A study of Mus musculus with 2 samples.

Results

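A set of 10 genes of the IL-2, IL-12, IL-15 and IL-27 cytokine axes were followed cell class by cell class in mice bearing MC38-OVAdim tumours. The genes were chosen by function and make up 10 of the 12638 genes in the matrix. They are Il12b (a subunit of IL-12), Il27 and Ebi3 (both subunits of IL-27), Il15 and Il15ra (IL-15 and the chain that presents it), Il12rb1 and Il12rb2 (the IL-12 receptor) and Il2ra, Il2rb and Il2rg (the IL-2 receptor). The cells were CD45+ leukocytes, enriched for dendritic cells (DC), of 4 C57Bl6 mice, taken from the subcutaneous tumour and from lymph nodes that did (dLN) or did not (ndLN) drain it. All 4 mice received MC38-OVAdim, a mouse colon carcinoma line carrying a form of ovalbumin. The 2 wild-type controls (WT1, WT2) carried the floxed Havcr2 allele. The other 2 mice (KO1, KO2) are labelled as knockouts of Havcr2, which encodes the checkpoint receptor TIM-3. The sources used here do not state the Cre driver, the deleted exons or the age of the mice. Cells of all 3 tissues of WT1 and KO1 were tagged, pooled and run in one 10x channel, and those of WT2 and KO2 in the other.

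IL-12 is a dimer of the Il12b and Il12a products made by activated antigen-presenting cells; it signals through a receptor of 2 chains to STAT4 in T and NK cells, and Il12b is also a subunit of IL-23. IL-27, a dimer of the Il27 and Ebi3 products, acts through Il27ra and Il6st, and Ebi3 is known in regulatory T cells as a subunit of IL-35. IL-15 is carried to the surface of the producing cell by Il15ra and presented to NK and CD8 T cells, which read it with Il2rb and Il2rg. Regulatory T (Treg) cells add Il2ra to those chains and so bind IL-2 with high affinity.

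The matrix held 12458 cells in 12 mouse and tissue samples of 473 to 1691 cells, with 3031124 to 28498154 unique molecular identifiers (UMIs) per sample. Tumour cells had a median of 15191 UMIs, dLN cells 4520 and ndLN cells 4633, so shares of cells with a UMI are not comparable between tissues without regard to depth. The 2 channels shared 65 cell barcodes. Cells fell into 23 classes rebuilt from clusters and marker genes, plus 469 unnamed cells; a class is called "-like" by its markers. Levels are UMIs per 10000 UMIs of a cell, averaged over cells, and each class and tissue was used only for mice with at least 20 such cells. Intervals given with shares are exact 95% binomial ones. Where no cell had a UMI, the limit given is 3 counts over the number of cells; both cover counting error only, and bound cells with a UMI, not cells that express the gene. Havcr2 itself, the check of the labels, fell in KO mice in cDC1-like cells of dLN, by 0.99 in mean log2(1 + UMIs per 10000) (limma adjusted p = 4.7e-08). It also fell in 4 tumour monocyte and macrophage classes, by 0.39 to 0.62. It did not pass in tumour Ace+ monocyte-like cells (0.02, adjusted p = 0.991) or in cDC2-like cells of dLN, where the difference was -0.20. In the other classes compared by genotype, mature DC-like and lymphocyte classes among them, Havcr2 was under the detection filter of 5% of cells. Its loss was not checked in those classes.

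**Figure D1:**
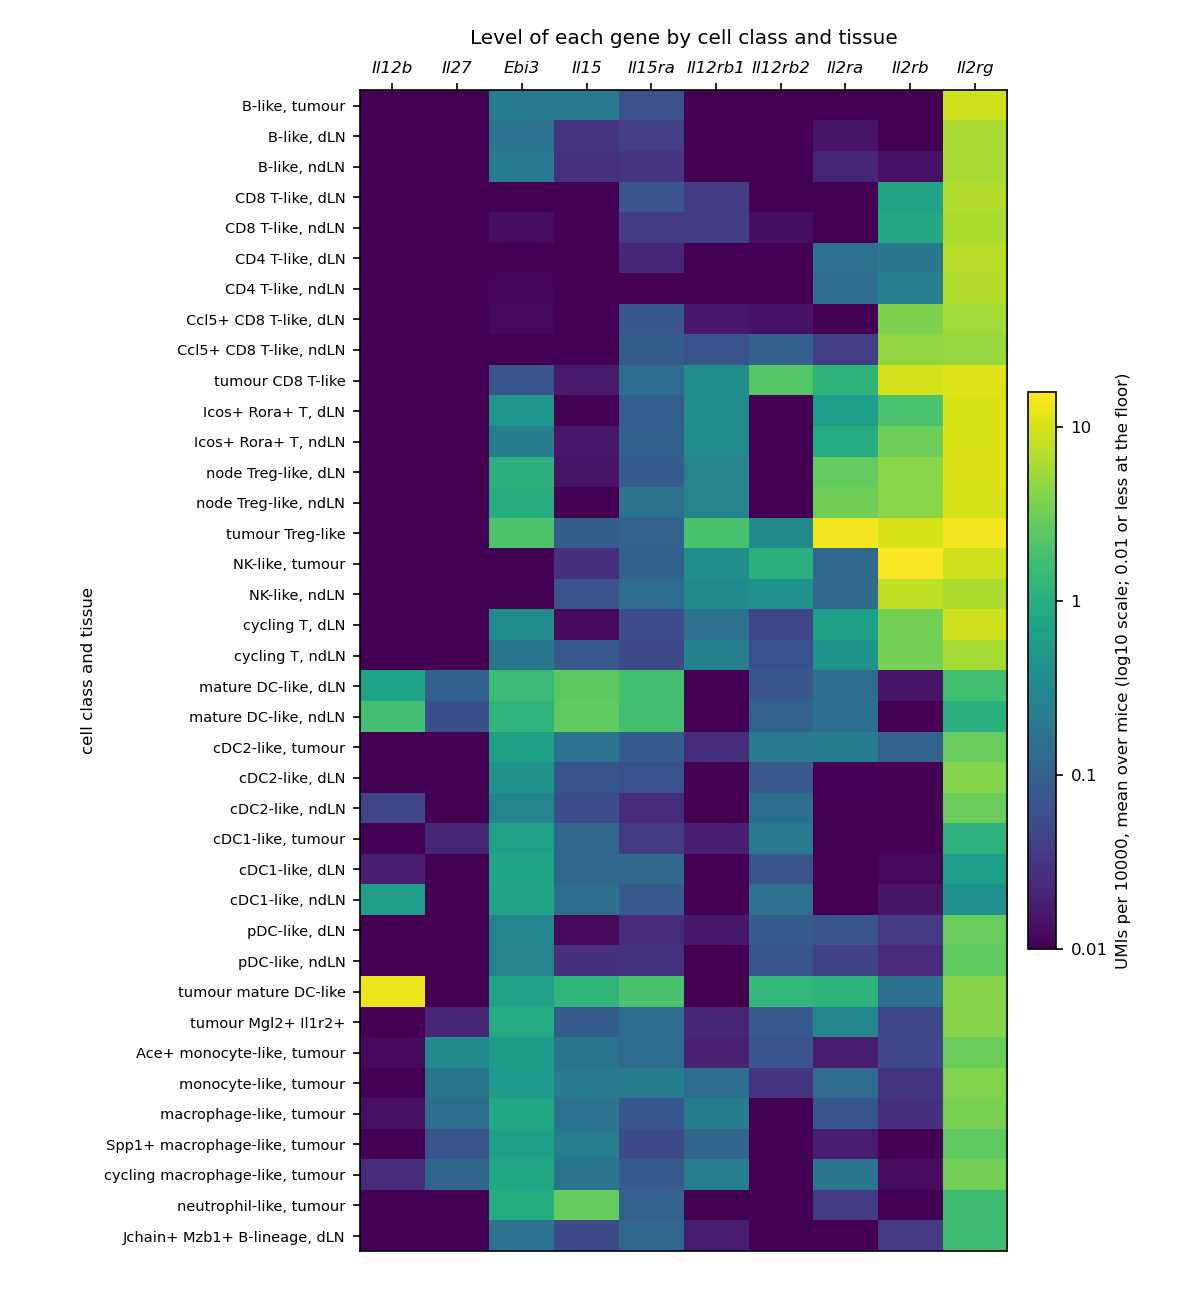
Level of each of the 10 genes (columns) in each cell class and tissue (rows), as UMIs per 10000 averaged over mice, on a log10 colour scale with 0.01 or less at the floor. Il12b is brightest in the mature DC classes, Il27 in tumour monocytes and macrophages, Il2ra in Treg-like cells, and Il2rg is above the floor in every row.

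RefSeq's table (GRCm38.p6) held promoters of 6 of the 10 genes. Of these, 5 are shown, chosen after levels and matches had been seen: Il12b and Ebi3 as secreted subunits, Il15ra as the presenting chain, and Il12rb2 and Il2ra as receptor chains highest in different tumour T cells. Each stretch is the 250 bases before a start site, 5′ to 3′ on the gene's strand: Il12b at chr11:44399813-44400062 (plus strand), Ebi3 at chr17:55952373-55952622 (plus), Il15ra at chr2:11705462-11705711 (plus, the second of 2 listed starts), Il12rb2 at chr6:67376189-67376438 (minus) and Il2ra at chr2:11642542-11642791 (plus).
Il12b: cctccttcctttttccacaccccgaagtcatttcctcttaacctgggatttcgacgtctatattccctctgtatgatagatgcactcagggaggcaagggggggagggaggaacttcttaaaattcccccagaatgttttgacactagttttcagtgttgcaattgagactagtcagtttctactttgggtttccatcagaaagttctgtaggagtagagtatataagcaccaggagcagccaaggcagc
Ebi3: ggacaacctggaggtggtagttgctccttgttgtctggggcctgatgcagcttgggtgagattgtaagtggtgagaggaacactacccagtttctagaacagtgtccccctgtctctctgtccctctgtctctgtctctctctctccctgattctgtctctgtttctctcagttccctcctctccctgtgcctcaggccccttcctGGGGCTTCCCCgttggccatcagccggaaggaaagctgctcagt
Il15ra: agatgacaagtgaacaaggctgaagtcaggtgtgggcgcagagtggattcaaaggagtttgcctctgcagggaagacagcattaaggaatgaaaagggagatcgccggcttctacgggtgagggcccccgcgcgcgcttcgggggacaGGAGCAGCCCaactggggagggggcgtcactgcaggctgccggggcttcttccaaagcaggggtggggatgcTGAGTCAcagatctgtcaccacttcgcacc
Il12rb2: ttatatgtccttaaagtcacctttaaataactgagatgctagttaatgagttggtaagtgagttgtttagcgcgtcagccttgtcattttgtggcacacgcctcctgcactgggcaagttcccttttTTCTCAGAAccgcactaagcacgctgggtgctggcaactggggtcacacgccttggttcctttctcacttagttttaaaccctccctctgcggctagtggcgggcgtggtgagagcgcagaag
Il2ra: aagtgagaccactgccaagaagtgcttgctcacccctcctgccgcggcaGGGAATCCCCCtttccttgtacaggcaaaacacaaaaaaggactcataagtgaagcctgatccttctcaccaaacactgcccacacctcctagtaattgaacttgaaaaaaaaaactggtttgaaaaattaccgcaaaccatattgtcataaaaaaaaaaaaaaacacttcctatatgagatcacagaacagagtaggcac
Capitals mark matches, on either strand, of 3 motifs: a loose NF-kB motif (a run of G, a spacer of any bases and a run of C), an AP-1 motif TGANTCA and a STAT motif TTCNNNGAA. Of all 32851 promoters in the table, cut to the same length, 45.8% held the first, 6.75% the second and 7.02% the third. Ebi3 had 4 NF-kB matches that overlap one another in 1 stretch 44 bases before the start, Il15ra had 1 NF-kB and 1 AP-1 match, Il12rb2 had 1 STAT match, Il2ra had 3 NF-kB matches that overlap in 1 stretch, and Il12b had none of the 3 motifs, nor had Il2rg, which is not shown. The 3 were picked out of 9 motifs searched, after the matches had been seen. The other 6 were a strict NF-kB motif (1.41% of promoters), an interferon response element (2.98%) and GAGGAAGT (2.44%), which matched no promoter of the 10 genes, GGAAGT (19.7%; Il2ra), TGTGGT (14.05%; Il2rg) and TTNNNNAA (57.7%; all 6 genes with a promoter). A match is a description of these letters and not a measured binding site.

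On the same build the gene bodies (GENCODE vM21) lie at chr11:44400063-44414033 for Il12b, chr7:126589010-126594941 for Il27, chr17:55952640-55957022 for Ebi3, chr8:82331632-82403222 for Il15 and chr2:11705290-11734317 for Il15ra. The receptor genes lie at chr8:70808449-70821424 for Il12rb1, chr6:67291318-67376188 for Il12rb2, chr2:11642807-11693193 for Il2ra, chr15:78479256-78495271 for Il2rb and chrX:101264378-101268255 for Il2rg. UMIs were counted over whole genes by a 5′ kit, so exons and isoforms are not told apart.

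Il12b was concentrated in mature DC. Mature DC-like cells, which carry Ccr7, Fscn1 and Ccl22 and are DC that have migrated or matured, made up 6.62% of cells and held 52.4% of the 1762 Il12b UMIs. A separate group of 30 tumour mature DC-like cells, 0.241% of cells, held another 27.0%. Il12b was itself the leading gene of that small group, so its height there describes the group and is no finding. In dLN mature DC-like cells Il12b was 1.19 UMIs per 10000 in WT1, 1.104 in WT2, 0.457 in KO1 and 0.123 in KO2. In ndLN it was 1.23, 1.202, 1.09 and 3.44. The values of both nodes overlapped, and all lay far under the 12.7 of WT1's tumour mature DC-like cells, the only mouse with enough of those cells. Across all tissues, 184 of 825 mature DC-like cells had an Il12b UMI (22.3%, interval 19.5 to 25.3%), against 11 of 373 cDC1-like cells (2.95%) and 1 of 2355 B-like cells (0.0425%). Median depth was 7164, 16576 and 3057 UMIs per cell in these 3 classes. Macrophage-like cells, deeper at 22329 UMIs, had an Il12b UMI in 17 of 1312 tumour cells (1.30%).

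Few cells carried most of the message. In ndLN mature DC-like cells of KO2, 1 cell held 133 of the 147 Il12b UMIs (90.5%), and that cell sets the highest node value. In ndLN cDC1-like cells of WT1, 1 cell held 141 of 145. In dLN the top cell held 115 of 324 UMIs in WT1 and 34 of 134 in WT2. Even in tumour mature DC-like cells of WT1, 149 of 446 UMIs came from 1 of 27 cells. Il12b means per mouse therefore rest on single cells in several samples. Il12a, which encodes the partner subunit, was in none of the 825 mature DC-like cells, which allows a share of cells with a UMI of up to 0.364%, and in none of the 373 cDC1-like cells, which allows up to 0.804%. B-like cells had Il12a in 137 of 2355 cells (5.82%), at 0.197 UMIs per 10000.

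Il27 and Ebi3, whose products pair as IL-27, had different distributions. By number of UMIs, Il27 came mostly from tumour monocytes and macrophages, which were many and deep. Macrophage-like cells held 41.4% of its 1035 UMIs, monocyte-like cells 24.3% and cycling macrophage-like cells 13.04%. Its level was highest in Ace+ monocyte-like cells, the patrolling, nonclassical type, at 0.328 ± 0.106 UMIs per 10000 (SD, n = 4 mice), followed by monocyte-like cells at 0.173 ± 0.0353 and macrophage-like cells at 0.137 ± 0.0400. The per-mouse ranges of these neighbours overlapped (0.206 to 0.455, 0.132 to 0.215 and 0.0781 to 0.164). Mature DC-like cells of dLN had Il27 too, at 0.0997 (0 to 0.190), a range that overlapped those of monocyte-like and macrophage-like cells. With each cell cut at random to 1000 UMIs, 1.12% of these DC had an Il27 UMI. The share was 1.30% in tumour macrophage-like and 3.70% in tumour Ace+ monocyte-like cells. None of 1552 CD8 T-like cells and 1 of 2355 B-like cells had an Il27 UMI.

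Ebi3 was shared by myeloid and regulatory T cells. It reached 1.78 and 2.29 UMIs per 10000 in the 2 mice with enough tumour Treg-like cells, 1.51 ± 0.637 in dLN mature DC-like cells (n = 4) and 1.13 ± 0.674 in dLN Treg-like cells (n = 4), with overlapping ranges. Macrophage-like cells had an Ebi3 UMI in 78.1% of cells, at 0.859 UMIs per 10000, and held 32.7% of its 7826 UMIs, whereas CD8 T-like cells stood at 0.00946. Of the 329 macrophage-like cells with an Il27 UMI, 274 also had Ebi3 (83.3%), against 76.4% of those without Il27; cells with Il27 were somewhat deeper, at a median of 24505 against 21442 UMIs. In mature DC-like cells the same shares were 65.9% of 44 cells and 42.6%, with median depths of 9596.5 and 7021. Both subunits were found in 274 of 1324 macrophage-like cells and in 29 of 825 mature DC-like cells. The macrophage-like class was also deeper (median 22329 against 7164 UMIs), and depth moved with the pairing within both classes. The part of depth in these counts was not tested. Of the receptor of IL-27, Il27ra was highest in Icos+ Rora+ T cells (0.982 UMIs per 10000) and Il6st, the signalling chain shared with IL-6, in cDC2-like cells (1.19).

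Il15 and Il15ra were both high in mature DC. By the mean over mice, Il15 ranked first in tumour neutrophil-like cells (2.78, from 2 mice), just above mature DC-like cells of ndLN (2.59) and dLN (2.48), with overlapping ranges. Il15ra ranked first in the tumour mature DC-like cells of WT1, followed by mature DC-like cells of ndLN (1.76) and dLN (1.72). Mature DC-like cells held 54.7% of the 3247 Il15 UMIs and 44.4% of the 2142 Il15ra UMIs. Il15 in their dLN samples was 3.11 (WT1), 2.62 (WT2), 1.84 (KO1) and 2.35 (KO2) UMIs per 10000, and 3.68, 2.13, 2.99 and 1.55 in ndLN. Il15ra was 2.24, 1.28, 1.45 and 1.92 in dLN and 1.85, 1.45, 2.51 and 1.23 in ndLN. No node sample of either gene lay near the next level down, which was 0.239 ± 0.0675 for Il15 (Spp1+ macrophage-like, n = 4) and 0.227 ± 0.0926 for Il15ra (monocyte-like, n = 4), apart from those 2 small tumour groups. These were neutrophil-like cells, with Il15 at 1.61 in WT1 and 3.95 in WT2 and a UMI in 20 of 69 cells of low depth (median 2115), and tumour mature DC-like cells of WT1, with 1.24 for Il15 and 1.93 for Il15ra. In mature DC-like cells, 388 of 586 cells with Il15 also had Il15ra (66.2%), against 32.2% of cells without Il15. The cells with Il15 were deeper (median 8470.5 against 3666 UMIs); the part of depth in this was not tested. Across 118 class, tissue and mouse samples both genes had a Pearson r of 0.89, the highest of the 45 pairs among the 10 genes; the samples share mice, channels and depth, so this is a description.

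The IL-12 receptor chains were highest in different tumour lymphocytes. Il12rb2, the chain that binds STAT4 and is induced on activated T and NK cells, was 2.14 (WT1) and 2.36 (KO1) UMIs per 10000 in tumour CD8 T-like cells. It was 1.27 and 0.866 in tumour NK-like cells of the same mice, so the ranges did not overlap. Only 7 of 1552 CD8 T-like cells and none of 2355 B-like cells had an Il12rb2 UMI, the latter allowing a share of cells with a UMI of up to 0.127%. Il12rb1, which the IL-12 and IL-23 receptors share, was 1.49 (WT1) and 2.33 (KO1) in tumour Treg-like cells, above every other class, followed by tumour CD8 T-like cells at 0.354 and 0.421. Among tumour CD8 T-like cells with Il12rb1, 33 of 44 also had Il12rb2, against 11 of 45 among tumour Treg-like cells. By number of UMIs, macrophage-like cells were the main source of Il12rb1: at 0.250 UMIs per 10000, with a UMI in 502 of 1324 cells, they held 40.7% of the 1805. In contrast, 31 of the 858 Il12rb2 UMIs (3.61%) came from macrophage-like cells.

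The IL-2 receptor chains differed by lymphocyte class. Il2ra, whose product binds IL-2 with high affinity only together with the other 2 chains, was one of the leading genes of tumour Treg-like cells. It was 11.5 (WT1) and 16.6 (KO1) UMIs per 10000 in that class. In dLN Treg-like cells it was 2.73, 3.24, 3.70 and 1.11 (WT1, WT2, KO1, KO2), and tumour CD8 T-like cells had 1.15 to 1.28. Tumour and node Treg-like ranges did not overlap. Il2rb, the signalling chain that also reads IL-15, was highest in tumour NK-like cells at 17.5 (WT1) and 12.3 (KO1), then in tumour Treg-like cells (10.7 and 9.60) and tumour CD8 T-like cells (9.80 and 9.98), the last 2 overlapping. Il2rb was also among the leading genes of node Ccl5+ CD8 T-like cells. There it was 3.68 ± 0.328 in dLN (n = 4), against 0.796 over the other CD8 T-like cells and 0.00872 in B-like cells.

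Il2rg, the chain common to the IL-2, IL-4, IL-7, IL-9, IL-15 and IL-21 receptors, was present in every class. It was 14.6 (WT1) and 13.2 (KO1) in tumour Treg-like cells, 6.18 over all B-like cells, 3.95 over macrophage-like cells, 1.42 over mature DC-like cells and 0.600 over cDC1-like cells. A UMI of all 3 chains was found in 83 of 87 tumour Treg-like cells (95.4%), 43.2% of tumour CD8 T-like, 27.3% of node Treg-like, 24.0% of cycling T, 14.7% of NK-like, 5.08% of Icos+ Rora+ T, 1.05% of CD4 T-like, 0.952% of Ccl5+ CD8 T-like and 0.258% of CD8 T-like cells. Il2rb together with Il2rg, the pair that reads presented IL-15, was found in 96.7% of NK-like, 96.6% of tumour Treg-like, 96.4% of tumour CD8 T-like, 79.7% of Ccl5+ CD8 T-like, 74.0% of cycling T, 66.2% of node Treg-like, 41.5% of Icos+ Rora+ T, 29.3% of CD8 T-like and 5.81% of CD4 T-like cells. Median depth was 5468 UMIs in tumour Treg-like, 7561 in tumour CD8 T-like, 4491.5 in node Treg-like, 12061.5 in cycling T, 6679 in Ccl5+ CD8 T-like, 6016 in NK-like and 5158 in CD8 T-like cells; its part in these shares was not tested. Il2ra and Il15ra are neighbours on chromosome 2, 12.1 kb apart (GRCm38, GENCODE vM21), and had different classes at their top: Treg-like cells for Il2ra and mature DC for Il15ra.

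**Figure D2:**
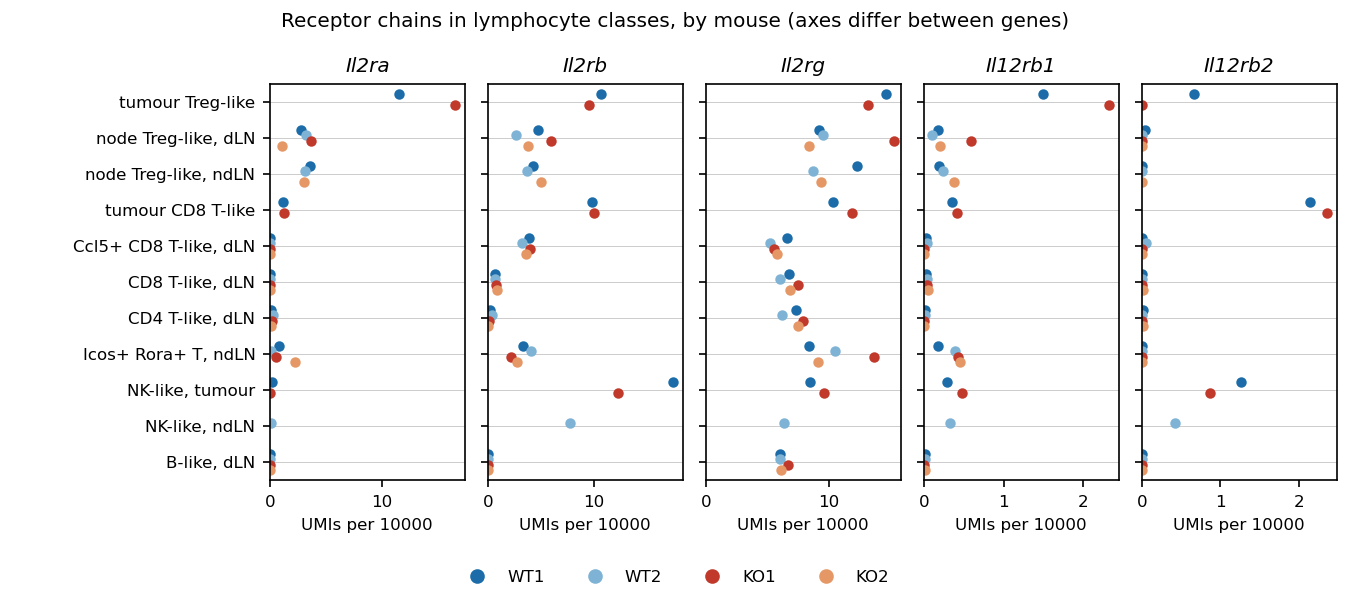
UMIs per 10000 (x axis, linear, a different scale for each gene) of the 5 receptor chains in lymphocyte classes (rows) chosen for display; each point is 1 mouse with at least 20 cells of the class. Tumour Treg-like cells are furthest right for Il2ra and Il12rb1, a dLN Treg-like sample (KO1, 15.3) for Il2rg, tumour NK-like cells for Il2rb and tumour CD8 T-like cells for Il12rb2.

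Other genes of the pathways followed the receptors in part. Il2 was found mainly in Icos+ Rora+ T cells, with a UMI in 42 of 236 cells (17.8%) and 64.4% of its 362 UMIs. Cish, a STAT5-induced feedback inhibitor, was highest in tumour Treg-like cells (6.09 UMIs per 10000) and then in tumour CD8 T-like cells (2.46); Jak3, the kinase bound to Il2rg, had the same 2 classes at its top (2.32 and 1.63). Stat4, downstream of IL-12, was 1.94 in NK-like cells, and 7.90 in tumour mature DC-like cells, one of whose leading genes it is. Relb, an NF-kB subunit of mature DC, was 9.08 in mature DC-like cells, and Batf3, the cDC1 regulator, 3.13 there and 2.10 in cDC1-like cells. Il12rb2 and Il21r were also high in the tumour mature DC-like group (1.24 and 4.42 over its 30 cells). The genes whose levels were most like each of the 10, by Pearson r over the 118 samples, were Npr1 for Il12b (0.98), Ankrd33b for Il15 (0.96), Ccl22 for Il15ra (0.96), Foxp3 for Il2ra (0.93), Cst7 for Il2rb (0.92), Fam26f for Il27 (0.91), Shisa5 for Il2rg (0.89), Itgav for Il12rb1 (0.85), Gzmf for Il12rb2 (0.83) and Psmb9 for Ebi3 (0.77). For Il12b, the tumour mature DC-like sample of WT1 stood at 12.7 UMIs per 10000, against at most 3.44 in any other sample. The next matches of Il12b, Slc27a3 and Gm13546, are leading genes of that small group. The part of this 1 sample in the r of Il12b was not tested.

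KO mice were compared with WT mice in each class and tissue with at least 2 mice per genotype. No test of the 10 genes passed at an adjusted p of 0.05: 0 of 93 by limma in 22 comparisons, against 42 of 164338 tests over all genes (0.0256%). At an unadjusted p under 0.05 there were 13 of the 93, against 4.98% of tests over all genes; by limma-voom there were also 13, with 0 calls. The tests share mice and neighbouring classes. The lowest adjusted p was 0.366. Of the 93 differences, 64 were above 0 (KO higher) and 29 below, with a median of 0.05, and in 33 both KO mice lay outside both WT mice, which was so in 34.1% of tests over all genes, near the members' share. Of the other pathway genes in 4 lists, none passed: 0 of 100 tests for ligands and receptors, 0 of 185 for kinases and STATs, 0 of 148 for feedback and response genes and 0 of 231 for regulators. On simulated data with 2 mice a genotype, in tumour monocyte-like cells (8898 genes), 55% of genes changed by 1 on the log2 scale were recovered and 97.9% of those changed by 2. Recovery was not split by level, and mature DC-like cells were not simulated.

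**Figure D3:**
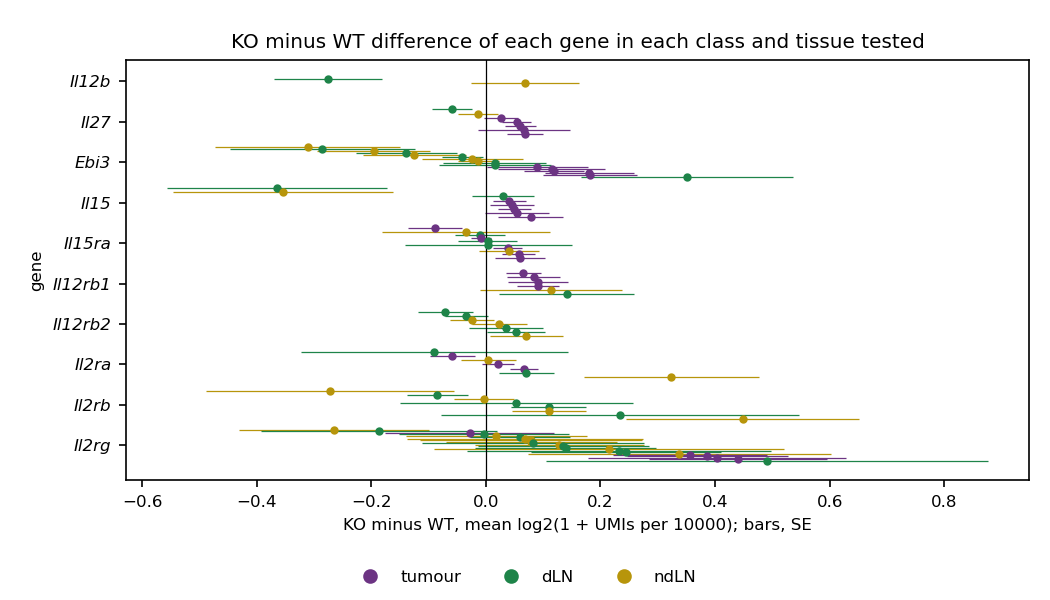
KO minus WT difference of mean log2(1 + UMIs per 10000) (x axis; bars, SE) for each gene (rows) in every class and tissue tested, coloured by tissue. None passed; tumour points of Il2rg, Ebi3 and Il12rb1 lie mostly right of 0, and node points of Il15 and Ebi3 in mature DC-like cells left of it.

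In dLN mature DC-like cells Il12b was lower in both KO mice than in either WT mouse. The values were 1.19 (WT1), 1.104 (WT2), 0.457 (KO1) and 0.123 (KO2) UMIs per 10000, from 224, 166, 43 and 24 cells. The difference of -0.28 (SE 0.0941) had an unadjusted p of 0.00829 and an adjusted p of 0.366, and did not pass. Il15 (-0.36, SE 0.192, adjusted p = 0.577) and Ebi3 (2.38, 1.43, 1.37 and 0.849; -0.29, SE 0.161, adjusted p = 0.599) had both KO values under both WT values too, as had Il27 (0.190, 0.123, 0.0858 and 0; -0.06, adjusted p = 0.618). Il15ra did not (0.00, adjusted p = 0.996). In this comparison 7 of 6977 genes passed (0.1%), and 653 had an unadjusted p under 0.05 by limma. Over all KO versus WT tests of all genes together, both KO mice lay outside both WT mice in 34.1%. That share was not counted for this comparison alone. The KO samples held fewer Ccl5-high cells, a subset in which Il12b, Il15 and Ebi3 were higher (1.58 against 0.904 for Il12b in Ccl5-low cells): 54.0% and 56.0% of mature DC-like cells in WT against 23.3% and 20.8% in KO. Median depth was also lower in KO (8175.5 and 7652.5 UMIs against 6843 and 5388). Within Ccl5-low cells the Il12b difference was -0.21 (adjusted p = 0.954), Il15 -0.24 and Ebi3 -0.01; Ccl5-high KO cells in dLN were too few (10 and 5) to test. The marker sums of T, NK, B and macrophage cells overlapped between genotypes in these cells. Il12b lies 2.04 Mb from Havcr2 on chromosome 11, so an effect of the targeted locus itself and of the loss of TIM-3 cannot be told apart.

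In ndLN mature DC-like cells, where no gene passed (0%), Il12b was 0.07 higher in KO (adjusted p = 0.980), a value that rests on the single cell of KO2 named above. Il15 (-0.35, adjusted p = 0.968) and Ebi3 (-0.31, adjusted p = 0.968) were lower in KO on average, with overlapping mice. The KO minus WT difference of Il12b differed between nodes by -0.34 (SE 0.131, adjusted p = 0.936), and that of Il2rg by 0.51 (SE 0.154, adjusted p = 0.936); neither passed. In all 7 classes, 0 of 23 such tests of the 10 genes passed, against 20 of 48285 over all genes (0.0414%), with 2 at an unadjusted p under 0.05 (5.01% over all genes), as by limma-voom.

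**Figure D4:**
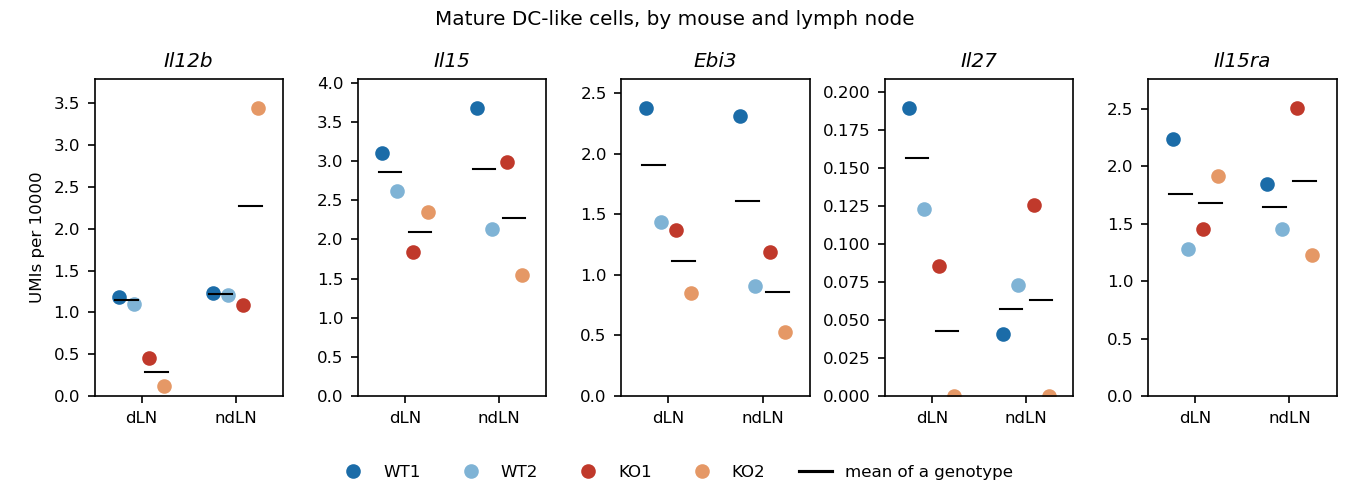
UMIs per 10000 (y axes from 0, 1 scale per gene) of 5 genes in mature DC-like cells by node; each point is 1 mouse and the line is the mean of a genotype. In dLN both KO points lie under both WT points for Il12b, Il15, Ebi3 and Il27; in ndLN Il12b of KO2 (3.44) is the highest point.

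In the tumour, Il2rg was measured higher in KO monocytes and 3 kinds of macrophage, without passing the test. In monocyte-like cells it was 4.01 (WT1), 2.67 (WT2), 4.68 (KO1) and 4.27 (KO2) UMIs per 10000 (0.36, SE 0.135, adjusted p = 0.817; 0.0454% of genes passed). In Spp1+ macrophage-like cells, which have Spp1, Gpnmb and Plin2 among their leading genes, it was 2.57, 1.62, 3.36 and 2.65 (0.39, SE 0.140, adjusted p = 0.451; 0.144%). Both KO mice lay above both WT mice in these classes and in cycling macrophage-like cells (3.50, 2.03, 4.36 and 3.60; 0.44, adjusted p = 0.749; 0.0198%). The mice overlapped in macrophage-like cells (3.89, 2.10, 4.98 and 3.302; 0.40, SE 0.225, adjusted p = 0.801; 0.0103%) and in Ace+ monocyte-like cells (3.51, 2.68, 2.41 and 3.64; -0.03, adjusted p = 0.991; 0.0129%). In Spp1+ macrophage-like cells Il12rb1 (0.0732, 0.0536, 0.187 and 0.124; 0.09, adjusted p = 0.506), Il27 (0.06, adjusted p = 0.580) and Ebi3 (0.18, adjusted p = 0.580) had KO values above WT as well. Among all 9043 genes tested in that class, 739 had an unadjusted p under 0.05 by limma. Both KO mice lay outside both WT mice, in either direction, in 34.1% of all KO versus WT tests together. That share was not counted class by class.

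The lowest mouse was usually WT2: in 27 of the 32 tumour tests of these genes it had the lowest value, and KO1 had the highest in 25. Over all genes tested in the same 5 classes WT2 was lowest in 26.0%. How often KO1 was highest over all genes was not counted, and the 32 tests share mice and neighbouring classes. T-cell markers, of which 4 of 5 were measured, summed to 0.0765 and 0.0592 UMIs per 10000 in the WT and to 0.364 and 0.314 in the KO Spp1+ macrophage-like cells, with all 4 above WT in KO. In cycling macrophage-like cells the sums ran the other way (0.415 and 0.239 against 0.216 and 0.0286), and in monocyte-like and macrophage-like cells they overlapped. Other lists moved with Il2rg as well. In monocyte-like cells the B-cell marker sum was 0.237 and 0.321 in WT against 0.414 and 0.524 in KO, with 3 of 5 markers above WT in both KO mice, and the macrophage sum was 94.6 and 75.2 against 104.2 and 95.6 (4 of 7). In cycling macrophage-like cells the macrophage sum was 250.5 and 213.8 against 276.5 and 265.0 (3 of 7). In macrophage-like and Spp1+ macrophage-like cells the B-cell and macrophage sums overlapped. The part of these in the Il2rg values was not tested. With the channel as a block, Il2rg rose in KO in monocyte-like cells (adjusted p = 0.0405, with 1.01% of all genes passing) and macrophage-like cells (adjusted p = 3.33e-05, with 4.84%), on 1 residual degree of freedom.

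**Figure D5:**
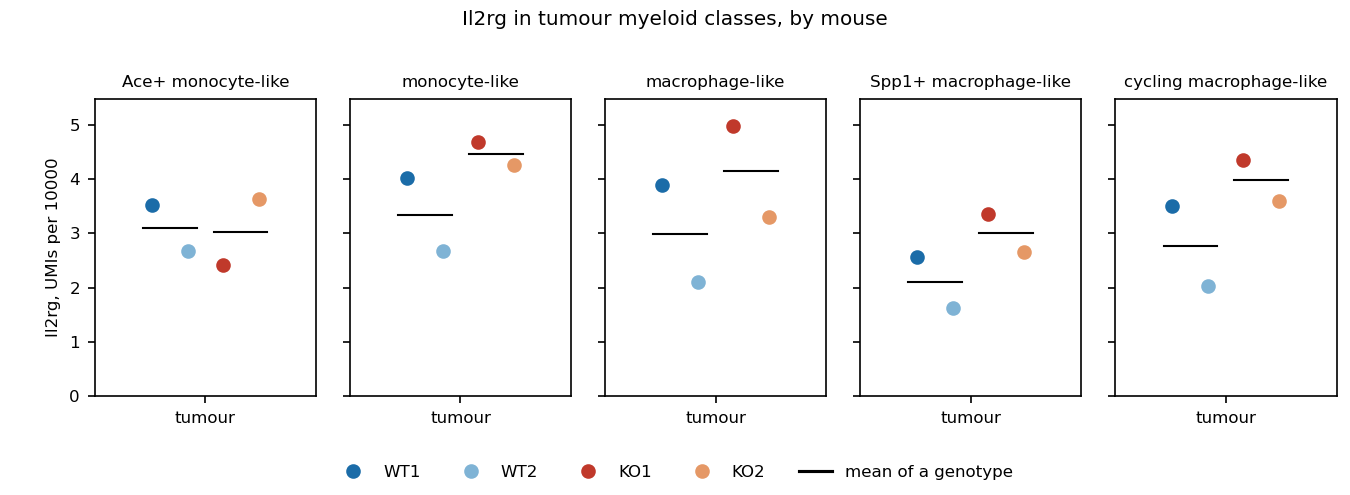
Il2rg as UMIs per 10000 (y axis from 0) in 5 tumour myeloid classes; each point is 1 mouse and the line is the mean of a genotype. WT2 is the lowest point in 4 of the 5 classes, and both KO points lie above both WT points in monocyte-like, Spp1+ and cycling macrophage-like cells.

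Leaving out single mice changed which tests passed. Without WT1, 8 of the tests passed: Il2rg, Ebi3, Il12rb1, Il27 and Il2ra in macrophage-like cells (4.47% of all genes passing), Il2rg and Ebi3 in cycling macrophage-like cells (1.91%) and Il2rg in monocyte-like cells (0.781%), all higher in KO and all with WT2 as the lone WT mouse. Without KO1, Il12b (-0.36, adjusted p = 0.0132) and Il27 passed in dLN mature DC-like cells, but so did 13.3% of all genes, and the node difference of Il12b (-0.49, adjusted p = 0.0150) and of Il2rg passed with 9.01%. Without KO2, Il2rg and Il2ra passed in dLN mature DC-like cells (5.2%), Il2ra in monocyte-like cells (0.398%), Il15ra in Spp1+ macrophage-like cells (0.623%) and Il2rg in cycling macrophage-like cells (1.03%). Without WT2, 0 passed. In each of these fits the lone mouse of a genotype was assumed to vary like the other group.

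A pair of node T-cell results reached an unadjusted p under 0.05 without passing. Il2rb in ndLN Ccl5+ CD8 T-like cells was 2.99, 4.74, 6.57 and 4.21 UMIs per 10000 in WT1, WT2, KO1 and KO2 (0.45, SE 0.203, adjusted p = 0.999; 0.0143% of genes passed), with overlapping mice. Il2ra in ndLN Icos+ Rora+ T cells was 0.777, 0.111, 0.515 and 2.27 (0.32, SE 0.153, adjusted p = 0.999; 0.0155%), also overlapping.

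Between the draining and the non-draining node of the same mice, 0 of 33 tests of these genes passed by limma in 9 classes, against 35 of 64235 over all genes (0.0545%), with 5 at an unadjusted p under 0.05 (6.33% over all genes) and also 5 by limma-voom. Il12b in mature DC-like cells was lower in dLN in 4 of 4 mice (-0.19, SE 0.0782, adjusted p = 0.840, with 0% of genes passing). In both WT mice the nodes were close, with 1.19 in dLN against 1.23 in ndLN in WT1. In KO2 the level was 0.123 against 3.44, where 1 ndLN cell held 133 of the 147 UMIs. Il12rb2 in cDC1-like cells was lower in dLN in 3 of 3 mice (0.0810 against 0.114 in WT1, 0 against 0.182 in WT2 and 0.0560 against 0.184 in KO2; -0.12, SE 0.0420, adjusted p = 0.481; 0.148%). Il2ra in Treg-like cells was lower in 2 of 3 (-0.47, adjusted p = 0.612; 0.0139%). Il2rg was higher in dLN in cDC2-like cells in 4 of 4 mice (0.30, adjusted p = 0.550; 0.0121%) and in plasmacytoid DC-like cells in 3 of 4 (0.22, adjusted p = 0.699; 0.0123%). Tumour and dLN were not tested within a class: the comparison was set to need 3 mice with enough cells in both, and the most was 2, in cDC2-like cells, also with 10 cells per sample.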

How the data were processed

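Libraries were made with the 10x 5′ kit, per the labels, and processed by the authors with Cell Ranger 3.0.2 on mm10, per the submitters' processing notes. The deposited values are natural log (ln) of 1 + 10000 × UMIs over a cell's UMIs, as the values show; whole UMIs came back for 100% of values within 0.01. The authors' cell filter is not stated in the sources used here, and doublets were neither called nor removed here. Samples (mouse, tissue, genotype) come from the deposited cell annotation.

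Cells were clustered with scanpy 1.11.5 and leidenalg 0.10.2 (2000 variable genes, of which 1967 were used after leaving out the 10 genes and the listed pathway genes, 30 components, resolution 1) into 27 clusters, named from marker lists. A few clusters were split at resolution 2, and the listed genes were left out of clustering, after levels had been seen. Members and lists were chosen with earlier results of these data known.

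The mean log2(1 + UMIs per 10000) of each mouse was tested with limma 3.58.1 (trend) over all genes with a UMI in at least 5% of cells, with at least 20 cells per sample, Benjamini-Hochberg adjustment over all genes of a comparison and a threshold of 0.05. KO was compared with WT by class and tissue; dLN with ndLN kept the mouse as a block; the node-by-genotype difference was an interaction term. Mice are the replicates, 2 a genotype, and scripts were tested on simulated data. The named genes are the 10 members whatever their test, pathway genes that pass, Havcr2, and the genes most like each member by Pearson r, of which the first of 3 is given. No pathway gene passed; those named beyond the rule are given for their levels and were chosen after their values were seen. The channel holds 1 WT and 1 KO mouse, per the labels, so it pairs mice; correlations of same-channel deviations ran from -0.09 to 0.70, and the block was an alternative. Other alternatives were no detection filter, limma-voom on summed UMIs, log2 of the mean, cells under 5% mitochondrial UMIs, 10 cells per sample, each mouse left out, and, added after seeing the data, Ccl5-high and Ccl5-low mature DC-like cells apart.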

Additional observations from a re-analysis of the deposited data

How the results depend on the processing

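The count of KO versus WT tests of the 10 genes that passed was 0 with no detection filter, by limma-voom, on log2 of the mean, in cells under 5% mitochondrial UMIs and with 10 cells per sample; it was 2 with the channel as a replicate block and ran from 0 to 8 when each mouse was left out. The genotype difference between nodes ran from 0 to 2 under the same omissions and was 0 otherwise. The comparison of dLN with ndLN stayed at 0 throughout, with no replicate block included. Highest classes were kept for 7 to 10 of the 10 genes; Il15, Ebi3 and Il15ra were those that changed, mostly to mature DC-like. Over all tests and settings the sign changed in 121 of 1411 values.

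Among 37 differences followed one by one, 21 of 376 alternative values changed sign, none of them past the threshold. In dLN mature DC-like cells Il15ra went to -0.024 on log2 of the mean and -0.090 in Ccl5-low cells, and with a mouse left out it ran from -0.12 to 0.13; Il2rg then ran from -0.039 to 0.53 and Il12rb2 from -0.084 to 0.016. In ndLN mature DC-like cells Il2ra went to -0.34 by limma-voom and -0.042 in Ccl5-low cells. There Il15ra went to 0.11 by limma-voom, 0.082 on log2 of the mean, 0.24 in Ccl5-high and 0.0015 in Ccl5-low cells, Il27 to 0.0056 on log2 of the mean, and Il12b to -0.13 in Ccl5-low cells. With a mouse left out, the ndLN values included -0.019 and -0.016 for Il2ra. They ran from -0.18 to 0.11 for Il15ra and from -0.049 to 0.020 for Il27, and Il2rg in Ace+ monocyte-like cells ran from -0.21 to 0.15. The causes were not tested, and Ccl5-high and Ccl5-low tests with 10 cells per sample gave no call. In simulated tumour monocyte-like and dLN CD8 T-like cells with 2 mice a genotype, 2-fold changes were often missed (55% and 52.1% recovered). Recovery at the levels of these 10 genes, or in mature DC-like cells, was not tested.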
